A study of Mus musculus with 6 samples.

Results

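The miRNAs of the miR-297, miR-466, miR-467 and miR-669 families are made from a dense row of hairpins in an intron of the mouse gene Sfmbt2. Their reads in the RNA-induced silencing complex (RISC) of young and old mouse brains are described here. Members were chosen by name: every miRNA label of the deposited table that begins with 1 of the 4 family names was taken, a joint label of several miRNAs was kept whole, and all reads of a label were added up. This gave 58 of the 1091 miRNA labels and 602 of the 143934 read sequences. The labels were then ranked by their mean level over the 6 libraries, and 36 had a mean of at least 1 RPM (reads scaled to the same total in each library). Of these, 16 had a mean of at least 10 RPM, the minimum for the main test. The samples were cortex and hippocampus, combined, of BL6 mice of 2 months (2M, n = 3) and 18 months (18M, n = 3). By the methods of the study they were male C57BL/6J mice, and no treatment or genetic change was given for either age. Argonaute proteins Ago1-4, which hold small RNAs in the RISC, were pulled down with a peptide of GW182, and the RNA bound to them was sequenced (Ago-RP-Seq).

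Sfmbt2 encodes a protein related to Polycomb repressors and is known as an imprinted gene, with the copy from the father active where imprinting holds. Whether it holds in these brain samples was not tested. The miRNA cluster in its intron is found in mice and related rodents, is best known from the placenta, and grew by repeated copying, so many of its hairpins give the same or nearly the same mature miRNA. A hairpin has a 5p and a 3p arm, either of which can be loaded into Argonaute. A loaded RNA finds its targets mainly through its seed near the 5′ end. The study treats read positions 2 to 7 as the 6mer seed and gives each seed a viability, the percent of cells that survive an siRNA with that seed, as the mean of 3 mouse cell lines.

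In the GENCODE M21 annotation of GRCm38, Sfmbt2 lies on the plus strand at chr2:10370510-10595253. Of the 81 hairpin genes that carry a name of the 4 families, 71 lay within Sfmbt2. All 71 were on its strand and none overlapped an exon of it. They spanned 51617 bp, chr2:10466663-10518279, within a single intron of 62472 bp, which is intron 10 of the transcript Sfmbt2-201. The first 20 bases of the most abundant read of every member label were found in a hairpin of this intron. For 34 of the 36 labels of at least 1 RPM they were found in no annotated hairpin elsewhere. For only 15 of the 36 did this read match 1 annotated hairpin alone, and the other reads of a label were not placed. The most abundant reads of miR-467a-5p and miR-467b-5p each matched the same 12 hairpins, so their reads cannot be assigned to single hairpins or told apart by origin.

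The sequences of the 16 most abundant labels show how closely the members resemble each other. Each line gives the most abundant read of a label, as DNA letters from the deposited table, with bases 2 to 8 in capitals. The first group shares the 6mer seed AAGUGC, which is also the seed of the miR-302 miRNAs of embryonic stem cells.
miR-467a-5p: tAAGTGCCtgcatgtatatgcg
miR-467d-5p: tAAGTGCGcgcatgtatatgcg
The next 3 reads start 1 base earlier relative to the same motif, so the seed of these reads is UAAGUG. Over all reads of miR-467c-5p the most used seed was AAGUGC, with 38.6%.
miR-467e-5p: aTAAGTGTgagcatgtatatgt
miR-467b-5p: gTAAGTGCctgcatgtatatgc
miR-467c-5p: aTAAGTGCgtgcatgtatatgt
The 3p reads are rich in CA and TA repeats.
miR-669a-3p/miR-669o-3p: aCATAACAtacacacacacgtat
miR-466d-3p: tATACATAcacgcacacatagt
miR-466a-3p/miR-466e-3p: aTACATACacgcacacataaga
miR-467d-3p: aTATACATacacacacctacac
miR-297b-3p/miR-297a-3p/miR-297c-3p: aTATACATacacacatacccat
miR-669f-3p: cATATACAtacacacacacgtat
The remaining 5p reads are rich in GT repeats.
miR-669c-5p: aTAGTTGTgtgtggatgtgtgt
miR-669d-5p: aCTTGTGTgtgcatgtatatgt
miR-669a-5p/miR-669p-5p: aGTTGTGTgtgcatgttcatgt
miR-466c-5p: gATGTGTGtgtgcatgtacatat
miR-297c-5p: aTGTATGTgtgcatgtacatgt

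The libraries held 19272046 to 25080484 reads, so that 3 reads correspond to 0.120 to 0.156 RPM. Marker miRNAs listed for neurons, oligodendrocytes, vessels, erythrocytes, choroid plexus, epithelium and pituitary overlapped between the ages in their summed level, and no listed marker that was found was at 0. Within these lists, miR-132-3p of neurons and miR-143-3p and miR-145a-5p of vessels were lower at 18M without overlap. By contrast, miR-449a-5p of choroid plexus was higher at 18M without overlap. The list for microglia and immune cells, 5 of 5 found, did not overlap: it was at 3401 to 3825 RPM at 2M and at 2458 to 2997 RPM at 18M. Of its 5 markers, miR-150-5p made up most of the sum and was the only 1 that did not overlap between the ages, while miR-142a-3p, miR-142a-5p, miR-223-3p and miR-155-5p overlapped. For the pituitary list, 2M replicate 1 had 2521 RPM and the remaining libraries 286 to 355 RPM. In bulk tissue, fewer cells of a type and less RNA per cell cannot be told apart. The part of these marker lists in the results below was not tested.

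The cluster took up a small part of the RISC and a smaller one in the old brains. Summed over all members, it stood at 1014, 1162 and 964 RPM in 2M replicates 1, 2 and 3, and at 627, 517 and 628 RPM in 18M replicates 1, 2 and 3. Every 18M library was below every 2M library. The means were 1047 ± 103 RPM in the young and 591 ± 63.8 RPM in the old libraries (SD, n = 3), a ratio of 0.564. As a share of all miRNA reads, the cluster made up 0.109% ± 0.0108 at 2M and 0.0616% ± 0.00682 at 18M (SD, n = 3). No test was made of the sum, since the members were put forward with results of these data known.

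**Figure D1:**
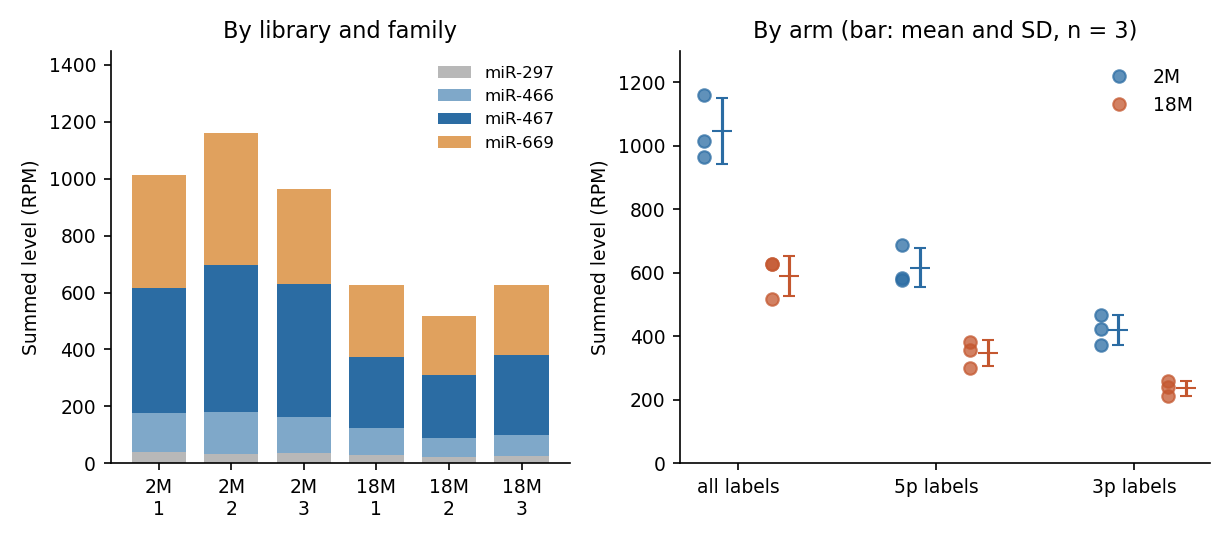
Left, summed level in RPM of the member labels in each of the 6 libraries, stacked by family, where a label of 2 families counts only in the family it names first. Right, summed level of all, 5p and 3p labels, with points for libraries and bars for the mean and SD (n = 3); the 18M sums lie between 517 and 628 RPM, below the 2M sums of 964 to 1162 RPM.

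Each of the 4 families was lower at 18M without overlap. The miR-467 labels summed to 473 ± 40.8 RPM in the young and 249.6 ± 29.8 RPM in the old libraries (SD, n = 3; ratio 0.528). The miR-669 labels summed to 401 ± 65.0 and 237 ± 25.1 RPM (ratio 0.590), and the miR-466 labels to 138 ± 9.70 and 78.6 ± 13.1 RPM (ratio 0.570). For the miR-297 labels, the sums were 35.1 ± 4.86 and 25.9 ± 4.62 RPM (ratio 0.736), with 30.7 RPM as the lowest 2M value and 30.3 RPM as the highest 18M value. The arms kept their proportion: the 3p share of 5p and 3p reads was 40.5% ± 1.37 at 2M and 40.6% ± 1.87 at 18M (SD, n = 3), and the groups overlapped.

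Among single labels, 8 of the 16 tested fell with age and none rose (limma on log2(RPM + 1), Benjamini-Hochberg adjusted p under 0.05 over all 466 labels of at least 10 RPM). Over all 466 labels, 3.0% were called lower. The 16 member labels made up 8 of these 14 calls. All 16 had a negative log2 fold change, with a median of -0.80, beside a median of -0.07 over all labels tested. In 14 of the 16 the ages did not overlap, where 18.5% of all labels were lower without overlap. Of these 14, miR-467c-5p, which is 1 of the 8 calls, and miR-466c-5p had a mean under 10 RPM at 18M. So did miR-297c-5p, whose ages overlapped. These labels reached the minimum only through their 2M level. With 1 library left out, the calls were lost: no member label passed the threshold without 2M replicate 1, 2 or 3 or without 18M replicate 1 or 3, and 4 passed without 18M replicate 2. The median log2 fold change of the members stayed between -0.86 and -0.70 in these fits of 5 libraries.

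**Figure D2:**
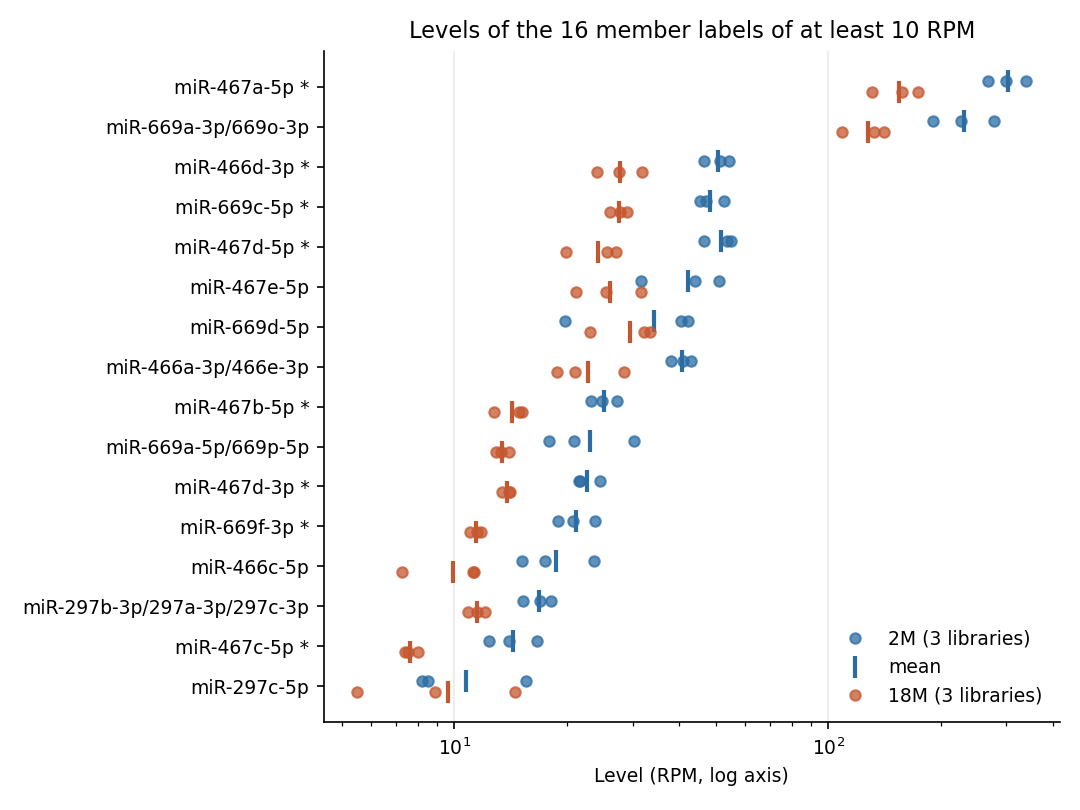
Level in RPM (log axis) of the 16 member labels in the main test, with a point for each library and a tick for the mean of each age; an asterisk marks an adjusted p under 0.05. In 14 of the 16 labels the 3 points of 18M lie to the left of the 3 points of 2M.

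miR-467a-5p was the most abundant member. It was at 268, 339 and 299 RPM in the 2M libraries and at 158, 131 and 174 RPM in the 18M libraries. It fell by 0.97 ± 0.15 on the log2 scale (SE, limma, adjusted p = 0.0307). miR-467d-5p, which has the same seed and was placed in a single hairpin at chr2:10507630-10507714, showed the largest log2 fold change of the 16. Its levels were 46.6, 55 and 53.5 RPM at 2M and 25.6, 19.9 and 27.1 RPM at 18M, and it fell by 1.07 ± 0.15 on the log2 scale (SE, limma, adjusted p = 0.0246). The ages were again fully apart. miR-467c-5p, placed in the hairpin at chr2:10473931-10474027, fell from a mean of 14.3 ± 2.13 to 7.63 ± 0.344 RPM (SD, n = 3; limma, adjusted p = 0.0442). miR-467b-5p fell from 25.2 ± 2.04 to 14.3 ± 1.29 RPM (SD, n = 3; limma, adjusted p = 0.0311), and miR-467d-3p, the other arm of the miR-467 hairpins, from 22.6 ± 1.64 to 13.8 ± 0.381 RPM (SD, n = 3; limma, adjusted p = 0.0343). For miR-467e-5p the ages only just did not overlap, with 44.0, 51.1 and 31.6 RPM at 2M and 21.1, 25.5 and 31.6 RPM at 18M, and its log2 fold change of -0.67 ± 0.22 did not pass (SE, limma, adjusted p = 0.204).

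In the miR-669 family, miR-669c-5p, placed in the hairpin at chr2:10509296-10509404, was at 52.7, 47.1 and 45.5 RPM at 2M and at 27.8, 28.9 and 26.1 RPM at 18M. The spread within each age was small against the difference, and the label fell by 0.79 ± 0.11 on the log2 scale (SE, limma, adjusted p = 0.0246). miR-669f-3p, placed in the first part of the cluster at chr2:10467229-10467349, fell from 21.2 ± 2.44 to 11.4 ± 0.417 RPM (SD, n = 3; limma, adjusted p = 0.0307). The joint label miR-669a-3p/miR-669o-3p, the second most abundant member, was at 227, 277 and 190.3 RPM at 2M and at 141, 109 and 133 RPM at 18M. Its ages did not overlap, and its log2 fold change of -0.85 ± 0.17 lay just outside the threshold (SE, limma, adjusted p = 0.0521). The other arm of these hairpins, miR-669a-5p/miR-669p-5p, was at 23 ± 6.46 and 13.4 ± 0.559 RPM (SD, n = 3; limma, adjusted p = 0.148). Among the miR-669 labels of at least 10 RPM, miR-669d-5p stood out. It was at 40.5, 42.2 and 19.8 RPM at 2M and at 32.1, 23.1 and 33.4 RPM at 18M, so the ages overlapped, and 2M replicate 3 was the lowest of the 6 libraries (log2 fold change -0.15 ± 0.31, SE, limma, adjusted p = 0.838).

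Of the miR-466 labels, miR-466d-3p was at 51.5, 54.2 and 46.7 RPM at 2M and at 31.8, 24.1 and 27.5 RPM at 18M, and fell by 0.85 ± 0.14 on the log2 scale (SE, limma, adjusted p = 0.0307). miR-466a-3p/miR-466e-3p was at 40.7 ± 2.57 and 22.8 ± 5.10 RPM (SD, n = 3; limma, adjusted p = 0.0521), and miR-466c-5p at 18.8 ± 4.31 and 9.90 ± 2.30 RPM (SD, n = 3; limma, adjusted p = 0.120). Neither overlapped between the ages. In the miR-297 family, the joint 3p label miR-297b-3p/miR-297a-3p/miR-297c-3p was at 16.8 ± 1.41 and 11.5 ± 0.607 RPM (SD, n = 3; limma, adjusted p = 0.108), also without overlap. miR-297c-5p was at 15.6, 8.21 and 8.53 RPM at 2M and at 14.5, 5.50 and 8.86 RPM at 18M (log2 fold change -0.19 ± 0.38, SE, limma, adjusted p = 0.836). Replicate 1 was the highest library of both ages, and the ages overlapped.

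The 20 labels between 1 and 10 RPM were too low for the main test. Their mean was lower at 18M in 19 of 20, and the ages did not overlap in 11. The exception was miR-669m-5p/miR-466m-5p, a label of 2 families, at 1.35 RPM in each age. The ratio of 18M to 2M had a median of 0.652 over these 20 labels. Over all 36 labels of at least 1 RPM, 25 were lower without overlap, where 18.3% of the 698 labels of that level were. Of these 25, miR-297b-5p had a mean of 0.745 RPM at 18M and reached 1 RPM only through its 2M level. In a fit of those 698 labels, 10 of the 36 passed, where 2.87% of all labels were called lower. The 2 added calls were miR-466h-3p, with 8.0 RPM at 2M and 4.37 RPM at 18M, and miR-669a-3-3p, at 5.27 and 2.67 RPM. Like miR-669i below, they were named after their values were seen. miR-669i varied most within an age, with 2.86, 2.63 and 11.1 RPM at 2M and 6.69, 0.811 and 4.48 RPM at 18M. The limit of 1 RPM fell between labels of like level: miR-669m-3p (1.25 RPM), miR-669e-5p (1.20 RPM) and miR-297b-5p (1.07 RPM) were just above it, and miR-669h-3p (0.977 RPM), miR-466h-5p (0.940 RPM) and miR-669k-3p (0.937 RPM) just below. The 22 labels under 1 RPM held 1.17% of the reads of the cluster. Their mean was lower at 18M in 19, which was not compared with other labels of that level, and at this depth many of them rest on few reads.

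**Figure D3:**
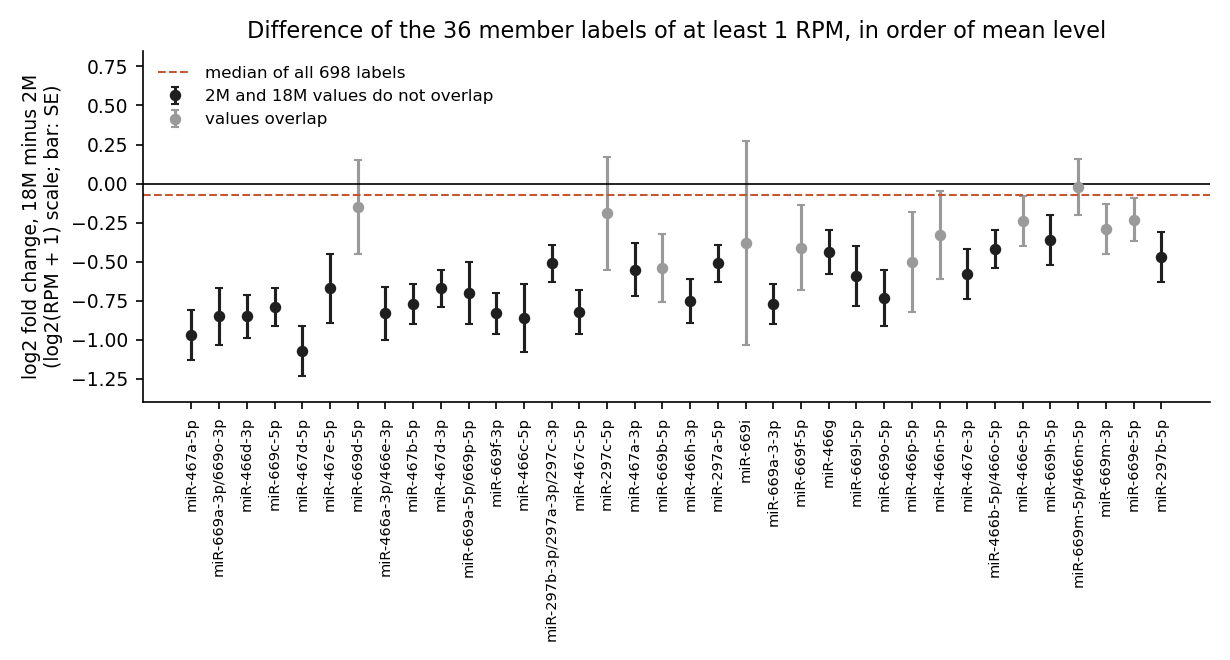
Log2 fold change (18M minus 2M, on the log2(RPM + 1) scale, bars for the SE) of the 36 member labels of at least 1 RPM, in order of their mean level from left to right. All 36 values lie below 0, and those of the 25 labels whose ages do not overlap are in black; the dashed line is the median of all 698 labels, -0.07.

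Lower levels were seen in both end parts of the cluster. Labels were placed by their most abundant read alone. Of the 15 labels placed in 1 hairpin, 6 lay in the first 10 kb from the first hairpin. They had log2 fold changes of -0.83 to -0.23, with a median of -0.68. The other 9 lay beyond 39 kb and had log2 fold changes of -1.07 to -0.19, with a median of -0.47. Across these 15 labels, which share libraries and in part hairpins, log2 fold change and position had a Pearson's r of 0.110 and a Spearman's rho of 0.266. The hairpins between these parts gave reads that matched several hairpins and were not placed.

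**Figure D4:**
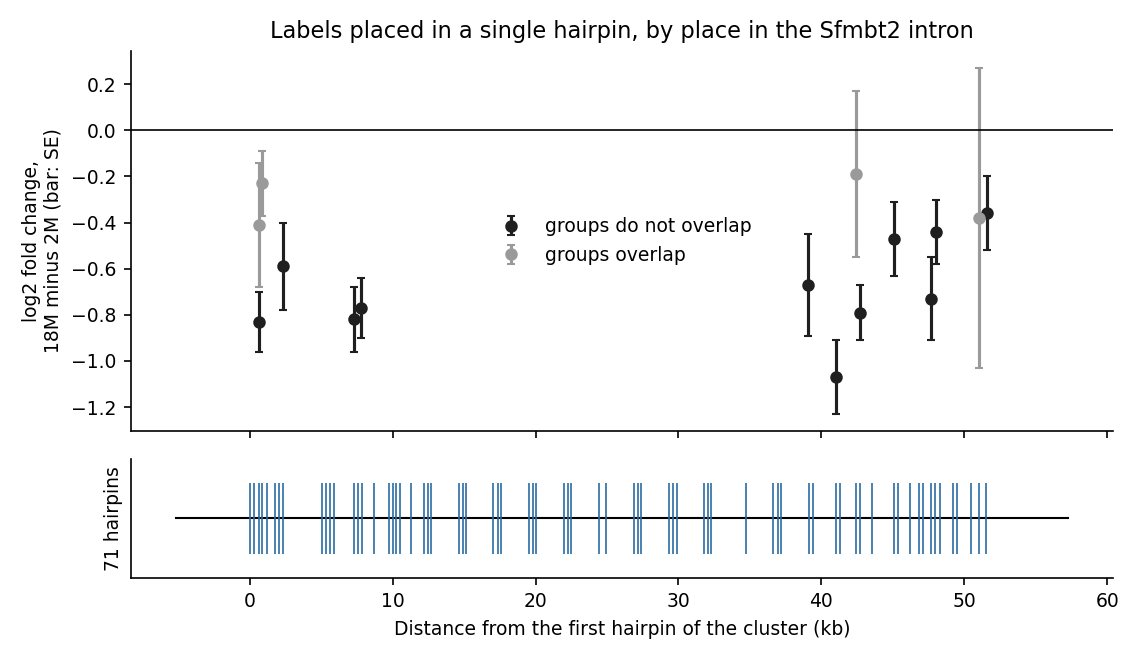
Above, log2 fold change (18M minus 2M, bars for the SE) of the 15 labels placed in a single hairpin, by distance in kb from the first hairpin of the cluster. Below, the 71 hairpins that carry a name of the 4 families as ticks on the host intron (line); all 15 values lie below 0 in both parts of the cluster.

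At the level of single read sequences, 12 member sequences reached the minimum of 10 RPM and none passed (limma, Benjamini-Hochberg over 3281 sequences, of which 0.152% were called lower). The edgeR quasi-likelihood test also called none of the 12. All 12 had a negative log2 fold change, and 10 had an unadjusted p under 0.05, as did 13.0% of all sequences. The most abundant reads of miR-466d-3p, miR-467d-5p and miR-669f-3p had a mean under 10 RPM at 18M. They reached the minimum only through their 2M level. The most abundant read, of miR-669a-3p/miR-669o-3p, was at 138, 181 and 119 RPM at 2M and at 88.8, 64.8 and 80.8 RPM at 18M (limma, adjusted p = 0.175). The most abundant read of miR-467a-5p was at 129.8, 163 and 129 RPM at 2M and at 73.9, 57.3 and 80.8 RPM at 18M (limma, adjusted p = 0.115). In both reads the ages did not overlap.

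The start of a read sets its seed, and members differed in how firmly it was fixed. Reads at the main 5′ end of their label made up 86.5% ± 0.433 of cluster reads at 2M and 86.8% ± 0.726 at 18M (SD, n = 3), and 92.4% of other miRNA reads at each age. For the 5 most abundant labels, the most abundant read with another 5′ end was shifted by 1 base. These are given with bases 2 to 8 in capitals to show the change of seed.
miR-467a-5p: gTAAGTGCctgcatgtatatgcg
miR-669a-3p/miR-669o-3p: cATAACATacacacacacgtat
miR-466d-3p: aTATACATacacgcacacatagt
miR-669c-5p: tAGTTGTGtgtggatgtgtgt
miR-467d-5p: aTAAGTGCgcgcatgtatatgc
This single shifted read made up 10.2% of miR-467d-5p, 5.29% of miR-669a-3p/miR-669o-3p, 2.83% of miR-466d-3p, 1.03% of miR-467a-5p and 0.399% of miR-669c-5p. Other members had a less fixed start. Among the 16 tested labels, reads at the main 5′ end made up from 39.6% of miR-467c-5p to 99.1% of miR-297c-5p. They made up 51.3% of miR-466c-5p and 51.6% of miR-467b-5p. The shift changed the seed viability from 81.9% to 84.2% in miR-467a-5p and miR-467d-5p, and from 86.4% to 31.9% in miR-669c-5p, whose shifted read was at only 0.152 RPM.

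Reads of the cluster also differed in form from those of other miRNAs. Reads of 21 to 23 nt made up 92.7% ± 0.672 of cluster reads at 2M and 92.2% ± 0.612 at 18M (SD, n = 3), against 84.2% ± 0.563 and 84.8% ± 0.470 of other miRNA reads. Cluster reads that start with A made up 45.3% ± 3.06 and 48.8% ± 1.42 (SD, n = 3), against 20.1% ± 1.06 and 18.6% ± 1.70 of other miRNA reads, of which most start with T. These are given as descriptions, without a test.

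The 36 labels used 22 distinct main seeds, and 5 seeds were shared by at least 3 labels each. UAUACA was the main seed of 5 labels, led by miR-467d-3p. AAGUGC (led by miR-467a-5p), GUUGUG (miR-669a-5p/miR-669p-5p), AUGUGU (miR-466c-5p) and UGUAUG (miR-297c-5p) were each the main seed of 3. Member reads made up 88.5% of all reads with the seed AAGUGC, 93.6% of those with CAUAAC, the seed of miR-669a-3p/miR-669o-3p, and 93.5% of those with UAGUUG, the seed of miR-669c-5p. They made up only 6.18% of the reads with UAUACA, which is also the seed of let-7 3p reads, and 12.2% of those with AUGUGU, most of which were from miR-1198-5p.

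Of the 12 seeds used by the 16 tested labels, 2 fell and none rose (limma, Benjamini-Hochberg over 1105 seeds, of which 0.543% were called lower). All reads with AAGUGC together were at 312, 373 and 344 RPM at 2M and at 185, 161 and 200.4 RPM at 18M, and fell by 0.91 ± 0.14 on the log2 scale (SE, limma, adjusted p = 0.0493). Reads with UAGUUG were at 54.3, 48.9 and 47.3 RPM at 2M and at 30, 30 and 27.4 RPM at 18M, and fell by 0.76 ± 0.11 (SE, limma, adjusted p = 0.0462). Neither seed overlapped between the ages. Both lay close to the threshold, and neither passed without 2M replicate 1, 2 or 3 or without 18M replicate 1 or 3. Reads with UAUACA, few of which came from the cluster, were at 565 ± 19.4 RPM in the young and 622 ± 68.5 RPM in the old libraries (SD, n = 3; limma, adjusted p = 0.704), and reads with AUGUGU at 95.6 ± 6.04 and 99.4 ± 2.47 RPM (SD, n = 3; limma, adjusted p = 0.856).

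Cluster reads had a higher mean seed viability than other miRNA reads. The main seed of 19 of the 36 labels had a viability of at least 70%, and that of 4 labels a viability under 40%. These counts were not compared with those of other labels. The mean seed viability of cluster reads was 73.5% ± 0.577 at 2M and 72.7% ± 0.186 at 18M (SD, n = 3), against 58.1% ± 0.0977 and 57.8% ± 0.269 for other miRNA reads. Of the cluster reads, 60.3% ± 3.16 at 2M and 56.8% ± 0.492 at 18M reached a seed viability of 70% (SD, n = 3). In all reads of the libraries, the share above this limit was 26.5% ± 0.496 at 2M and 24.9% ± 0.937 at 18M (SD, n = 3), a difference of -1.58 percentage points. Cluster reads made up -0.0294 percentage points of it.

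Some reads of the cluster differed from the hairpin at a single base, and A-to-G was the main kind of difference. Adenosine in double-stranded RNA can be deaminated to inosine by ADAR enzymes, and inosine is read as G. Whether these reads arose in that way was not tested. Reads were compared by their first 18 bases, and variants that another annotated hairpin holds were left out. Of all reads with 1 changed base, 94.5% had an A-to-G change, and 21 of 143 A-to-G positions reached a share of 1%, against 3 of 1140 positions of other changes. Positions are counted from 1 at the 5′ end of the read. In the following pairs, the base that differs is in capitals, with the read as in the hairpin above the variant.
miR-467a-5p: taAgtgcctgcatgtatatgcg
miR-467a-5p A3G: taGgtgcctgcatgtatatgcg
miR-467d-3p: atatacatAcacacacctacac
miR-467d-3p A9G: atatacatGcacacacctacac
A3G changes the seed of miR-467a-5p from AAGUGC, with a viability of 81.9%, to AGGUGC, with a viability of 38.5%. A9G lies outside the seed, and these variant reads carry no miRNA label in the deposited table.

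Reads that cover the same hairpin base were added up, and the A-to-G share was compared at bases with at least 10 RPM and a share of at least 5%. There were 5 such sites in the cluster. At miR-467a-5p A3G, the share was 9.85%, 11.2% and 10.7% in the 2M libraries and 13.0%, 13.8% and 14.3% in the 18M libraries. Every old library had a higher share than every young one (mean 10.6% ± 0.696 and 13.7% ± 0.683, SD, n = 3). At miR-467d-5p A3G it was 15%, 15.7% and 16% at 2M and 18.8%, 22.7% and 18.3% at 18M, also without overlap. At miR-467c-5p A3G it was 22.3%, 25.7% and 30.5% at 2M and 38.7%, 31.2% and 38.3% at 18M, with a gap of less than a percentage point between the ages. At miR-467d-3p A9G it was 41.5%, 42.5% and 40.9% at 2M and 47.0%, 45.0% and 42.7% at 18M, again without overlap but with the ages close. Its unchanged reads, at 42.4, 33.3 and 36.8 RPM at 2M, exceeded that label, so the site holds reads of other labels too. The most abundant reads of miR-467d-3p and miR-467a-5p match largely the same hairpins, so their sites are not separate places. For reads at the main start of miR-467d-3p alone, the shares of the ages overlapped, with 39.5% to 41.5% at 2M and 40.2% to 45.6% at 18M. At the joint 3p label miR-297b-3p/miR-297a-3p/miR-297c-3p, A9G had a share of 11.3% ± 1.51 and 11.6% ± 0.944 (SD, n = 3), and the ages overlapped.

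With 3 libraries against 3, no site could reach a p under 0.1: each of the 4 sites without overlap had an exact two-sided permutation p of 0.1, which is 0.238 adjusted over the 38 sites compared in all miRNAs. Over these 38 sites, 36.8% were higher at 18M without overlap, so 4 of 5 in the cluster has to be read against 10 of 33 in other miRNAs, among them miR-376c-3p A6G with 42.8% ± 2.18 and 58.2% ± 3.22 (SD, n = 3). That site was named after its values were seen. Without sites at the first base of a read, a choice made after seeing the data, the counts were 4 of 5 in the cluster and 10 of 19 in other miRNAs. The level of the variant reads was lower at 18M too. At miR-467a-5p A3G, unchanged reads were at 261, 322 and 289.6 RPM at 2M and at 149, 122 and 161 RPM at 18M, and variant reads at 28.6, 40.7 and 34.6 RPM and at 22.3, 19.6 and 27.0 RPM. Counting error was small: for the main read start of this site in 2M replicate 1, the share of 9.84% over 5681 reads had a Wilson 95% interval of 9.09% to 10.6%, which covers counting error only.

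**Figure D5:**
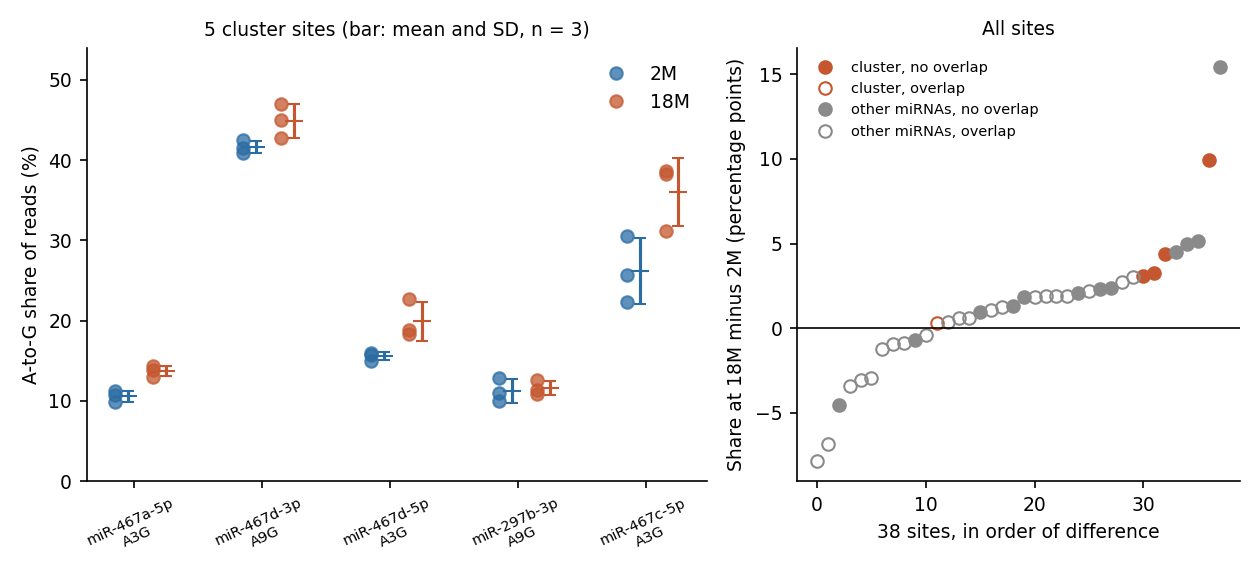
Left, A-to-G share in percent of the reads over the base, at the 5 cluster sites with a share of at least 5%, with points for libraries and bars for the mean and SD (n = 3 per age). Right, difference of the mean share (18M minus 2M, percentage points) at all 38 sites in order; the cluster sites lie at 0.311 to 9.92 percentage points, among sites of other miRNAs on both sides of 0.

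The labels outside the cluster whose log2(RPM + 1) followed the sum of the cluster most closely over the 6 libraries were miR-296-3p (Pearson's r = 0.989), miR-421-3p (r = 0.984) and miR-150-5p (r = 0.983). The 16 members had a median r of 0.936 with the sum, which is in part built in because each member is counted in the sum, and miR-669d-5p (0.398) and miR-297c-5p (0.301) had the lowest. Of the 450 labels outside the cluster, which had a median r of 0.252, 24 had an r over 0.9. These values are descriptions over 6 libraries that differ mainly by age. miR-421-3p was at 107, 115 and 101 RPM at 2M and at 91.9, 82.6 and 88.9 RPM at 18M. miR-296-3p was at 22, 28.5 and 24.5 RPM at 2M and at 10.3, 7.97 and 9.55 RPM at 18M. miR-150-5p, which is found mostly in lymphocytes, was at 3094, 3124 and 2852 RPM at 2M and at 2384, 2068 and 2431 RPM at 18M. None of the 3 overlapped between the ages, which was likely from how they were picked, since the sum itself split by age. Of all 466 labels of at least 10 RPM, 18.5% were lower without overlap.

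miR-296 lies in the imprinted Gnas region, so the other imprinted miRNAs were counted beside the cluster. Of 80 tested labels of other imprinted miRNAs, most from the Dlk1-Dio3 region of chromosome 12, 64 had a negative log2 fold change and 4 fell (limma, adjusted p under 0.05), where 61.6% of all labels were negative and 3.0% called lower. Their median was -0.19, beside -0.80 for the cluster and -0.07 for all labels. In the Dlk1-Dio3 region alone, 59 of 75 were negative, with a median of -0.17, and 1 fell. The 4 were miR-296-5p, which fell from 419.9 ± 108 to 97.0 ± 21.9 RPM (SD, n = 3; limma, adjusted p = 0.0144), miR-298-5p of the same region (170.1 ± 10.2 to 66.4 ± 10.9 RPM, adjusted p = 0.0144), miR-296-3p (adjusted p = 0.0152) and, of the Dlk1-Dio3 region, miR-412-5p (55.1 ± 6.80 to 26.6 ± 4.95 RPM, adjusted p = 0.0311). Whether these levels are linked to those of the cluster was not tested.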

How the data were processed

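Ago-bound RNA from 3 samples of each age was made into small RNA libraries. By the methods of the study, size markers of 19 to 35 nt were run beside the ligated RNA. The deposited reads were 15 to 38 nt long. The study's methods describe demultiplexing, trimming (Trim Galore is named in the submitters' processing notes), collapsing of identical reads, removal of rare reads and BLAST searches of each read against mouse small RNA lists within SPOROS. Tool versions and the build behind the miRNA labels are not given in the sources used here. The authors scaled the deposited values of each read sequence to RPM. A viability score per seed and the sum over the 6 libraries were also deposited by the authors. Of the per-sample columns, 0 were not used.

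From these RPM values, whole reads could be recovered: 100% were within 0.05 of a whole multiple of 1 read. Replicates of an age differed by far more than counting error, so each was kept as its own sample. Nothing in the labels says that replicates are separate animals, so p-values measure the spread between these samples only. Labels, sequences and seeds were each fitted over the whole table with limma 3.58.1 (R 4.3.3, moderated with a trend) on log2(RPM + 1), where the mean was 10 RPM or more. P-values were adjusted by Benjamini-Hochberg and called under 0.05. On this scale the change of low labels is understated. The fits were tested on simulated data with changes larger than those of the tested members. That test does not show how they do at changes of the size seen here. Intervals cover counting error only, since reads without molecular identifiers are not independent molecules.

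The members and lists were chosen with earlier results of these data known. The rule named the 12 most abundant labels, all called labels, the leading label of each seed shared by at least 3, and 3 labels on each side of 1 RPM. For reads, it named the most abundant and the most abundant shifted read of the 5 top labels. Outside the cluster, it named the 3 labels closest to the sum and the called imprinted miRNAs. The tests and values of all 16 tested members are printed. Reads were placed by 20 bases in hairpins of GENCODE M21 (GRCm38). The RefSeq table of mature miRNAs held 2 of the 58 labels, so the printed sequences are deposited reads.

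The alternatives covered the pseudocount (0.1 or 5), the minimum (1 RPM, 100 RPM or none), scaling by median of ratios, blocking on the replicate number, no trend, edgeR 4.0.16 and DESeq2 1.42.0 on the recovered reads, main 5′ ends only, and each library left out. Those for A-to-G shares were added after seeing the data. Tables and plots used Python 3.11.15 with numpy 2.4.6, pandas 2.3.3, scipy 1.17.1 and, for drawing, matplotlib 3.10.9.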

Additional observations from a re-analysis of the deposited data

Results flagged for a closer look

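Some reads of these hairpins stood outside the counts above. The deposited table has a second annotation column, and 135 read sequences carried a hairpin of the cluster there but no miRNA label. Together they were at 54.7, 52.8 and 43.8 RPM in the 2M libraries and at 35.6, 33.3 and 32.0 RPM in the 18M libraries, a mean of 50.4 ± 5.83 and 33.6 ± 1.85 RPM (SD, n = 3). They were looked at because they lie outside the labels compared and are far above the level that 3 reads correspond to. The ages did not overlap. The most abundant read with A9G of miR-467d-3p was among the reads with no label.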

How the results depend on the processing

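Of the 16 member labels, 8 were called. With a replicate block 0 were called, among labels of at least 100 RPM 0 of 2, with no filter on low values 0 of 58, and with reads at the main 5′ end only 5 of 14. Leaving out 1 library gave 0 to 4 calls among 15 to 17 members tested. The remaining settings gave 6 to 11, among them 10 of 36 in the fit of labels of at least 1 RPM. The labels do not say whether replicate numbers pair the libraries. Same-numbered libraries had correlations of -0.171, -0.222 and -0.101 of their deviations from the group means. With 3 libraries per age, these values cannot decide whether they do. Of the 12 member seeds, 2 were called, against 0 with the replicate block, 0 in a fit of seeds of at least 1 RPM, and 0 to 3 when 1 library was left out. No member sequence was called under any setting run. Of all called seeds, 4 of 10 were higher at 18M, against 11 of 18 under median-of-ratios scaling and 9 of 15 with edgeR. Of all called labels, 1 of 15 was higher, against 14 of 43 with DESeq2. The ratio of the summed level stayed between 0.563 and 0.599 under other settings and between 0.543 and 0.599 without 1 library.

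Directions turned only for members that were not called. The log2 fold change of miR-669d-5p was 0.04 without 2M replicate 2, and 0.01 both without 2M replicate 1 and without 18M replicate 2, in a range of -0.49 to 0.04. That of miR-297c-5p reached 0.12 without 18M replicate 2, in a range of -0.34 to 0.12. The A9G share of miR-297b-3p/miR-297a-3p/miR-297c-3p differed by -0.350 percentage points without 2M replicate 3 and by -0.183 without 18M replicate 2, in a range of -0.350 to 1.12. Why calls were lost was not tested. With 3 libraries per age, exact tests of single sites could not pass, and labels near 1 RPM rest on few reads.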
